A study of Mus musculus with 2 samples.

Results

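The cells described here carry the label Immune in the deposited cell table of a single-cell RNA-seq atlas of the mouse esophagus, the gastroesophageal squamocolumnar junction (GE-SCJ) and the stomach. The label was given by the authors from clustering of the same counts, and 354 of 7808 cells carried it, which is 4.53% (exact 95% binomial interval 4.08% to 5.02%). All other labels together held 7454 cells, and all animals were wild-type C57BL/6 mice. Tissues were taken at embryonic days E15 (6 mice) and E19 (2 mice), from pups (2 mice at 2 days) and from adults (3 mice at 8 weeks), with no treatment. The cells of each region and stage were pooled, marked with a CellPlex tag and sequenced in a common 10x Genomics 3′ library, and the adult stomach is not analysed here.

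Each of the 11 pools of region and stage was therefore a single sample, so no test was run and every interval below covers counting error alone. Pools of the same stage may share mice, and the labels do not say so either way. At E15, 82 of 2062 cells were labelled Immune (3.98%, interval 3.18% to 4.91%), at E19 180 of 3695 (4.87%), in pups 86 of 1573 (5.47%) and in adults 6 of 478 (1.26%). By pool, the esophagus, GE-SCJ and stomach gave 26, 25 and 31 immune cells at E15, then 38, 66 and 76 at E19, and 39, 30 and 17 in pups. The adult esophagus gave 5 cells and the adult GE-SCJ 1 cell, so sums over adult cells rest on very few cells. Immune cells held 3763867 unique molecular identifiers (UMIs, each a counted transcript molecule), with a median of 8266.5 per cell and a range from 519 to 67557. The median was 11504 UMIs at E15, 8892 at E19 and 5935 in pups, so the pup cells were the shallowest of the 3 larger stages. Levels are counts per 1000000 UMIs of a group of cells (CPM), and log2 ratios were taken between CPM of summed UMIs with 1 UMI added to each sum.

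Immune cells of the fetal and newborn gut wall are mostly myeloid. Macrophages engulf dying cells and debris, depend on signalling through the CSF1 receptor, and settle in tissues from the yolk sac and the fetal liver before birth. Monocytes and neutrophils arrive through the blood, neutrophils loaded with antimicrobial granule proteins that are made in an ordered sequence as the cell matures. Mast cells store proteases and histamine, and lymphocytes are sparse in these tissues before they are exposed to microbes.

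Genes shared across blood cell types were counted under the label. The label came from clustering of the same counts, so the shares below describe it and cannot test it. Ptprc (the leukocyte phosphatase CD45, chromosome 1, 138062861 to 138175708 on GRCm38) was found in 80.8% of immune cells and in 0.698% of the other cells. The same shares were 92.4% and 2.19% for Tyrobp, an adaptor of activating receptors on chromosome 7, and 92.9% and 2.43% for Fcer1g, the common chain of Fc receptors on chromosome 1. Cd52, a small surface glycoprotein gene on chromosome 4, was found in 78.2% of immune cells and 0.818% of other cells. Every immune cell had a UMI of at least 1 of 10 pan-immune genes, 278 cells had at least 8, and 149 had all 10. The 17 cells with at most 2 of these genes had a median of 1047 UMIs, although 1 of them, described next, held 18499, and 4 cells had none of the 4 genes named above.

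A few cells went against the label or away from the majority. In the pup stomach, 1 cell of 18499 UMIs carried 67 UMIs of Dclk1, 20 of Avil, 23 of Sh2d6, 39 of Gng13 and 12 of Trpm5, genes known from chemosensory tuft cells of the epithelium. It also held 111 UMIs of the keratin gene Krt18 and 21 of the epithelial adhesion gene Epcam, but no Tyrobp, Fcer1g or Cd52, no macrophage gene and only 1 Ptprc UMI. It did hold 14 UMIs of Rac2, a pan-immune gene of the list, and 37 of Alox5ap, a gene of leukotriene synthesis. At least 10 UMIs of Dclk1, Avil and Sh2d6 together were found in this cell, in 2 neural cells and in no cell of another label. The deepest cell, 67557 UMIs from the E19 GE-SCJ, carried 122 UMIs of Ighm, 36 of Cd79a, 55 of Vpreb3 and 20 of Vpreb1, which are genes of B-cell precursors, and none of the macrophage list. The adult GE-SCJ cell, at 33968 UMIs, combined 98 UMIs of macrophage genes with 569 of smooth muscle products. These 3 cells were singled out after their values were seen.

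Promoters of genes high in the immune cells were read for the PU box, the letters GAGGAA bound by PU.1, the product of Spi1 and a factor that macrophages and neutrophils need to form. Spi1 itself was found in 77.4% of immune cells at 254 CPM, against 0.567 CPM in the other cells. The sequences below are the 100 bases before the transcription start of 6 genes that hold the motif and of Fcer1g, which does not hold it there, so that the match can be seen beside its absence. They come from RefSeq on GRCm38.p6 and are written 5′ to 3′ on the strand of the gene, with the PU box in capitals, or its reverse complement TTCCTC where it lies on the other strand.
C1qb, chr4:136886201-136886300, minus strand: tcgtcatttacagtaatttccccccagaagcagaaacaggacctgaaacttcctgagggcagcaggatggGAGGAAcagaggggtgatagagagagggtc
Laptm5, chr4:130913216-130913315, plus strand: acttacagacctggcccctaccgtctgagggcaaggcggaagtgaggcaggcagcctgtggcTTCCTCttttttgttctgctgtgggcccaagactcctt
Fcgr1, chr3:96293970-96294069, minus strand: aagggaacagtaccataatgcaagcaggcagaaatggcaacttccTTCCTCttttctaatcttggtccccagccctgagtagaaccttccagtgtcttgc
Mrc1, chr2:14229314-14229413, plus strand: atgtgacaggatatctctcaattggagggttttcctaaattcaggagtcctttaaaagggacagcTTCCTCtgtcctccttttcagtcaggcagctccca
S100a8, chr3:90668971-90669070, plus strand: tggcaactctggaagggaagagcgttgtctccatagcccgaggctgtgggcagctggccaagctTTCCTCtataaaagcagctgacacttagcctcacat
Cd53, chr3:106790150-106790249, minus strand: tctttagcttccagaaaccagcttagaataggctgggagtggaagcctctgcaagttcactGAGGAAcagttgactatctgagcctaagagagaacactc
Fcer1g, chr1:171234350-171234449, minus strand: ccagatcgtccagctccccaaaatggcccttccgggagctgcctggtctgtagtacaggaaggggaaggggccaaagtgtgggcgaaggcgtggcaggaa

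Among genes at least 100-fold higher in immune cells than in the other labels, 150 had a promoter in the table and 91 of these (60.7%) held the motif on either strand, within 250 bases before to 50 after a start. The share was 44.3% of 176 genes that were 8- to 100-fold higher, and 977 of 3252 genes within 2-fold held it. Of all 27025 genes with a promoter, 31.3% did. Within the 100 bases before the start, the shares were 34.7%, 17.0%, 9.84% and 11.2% in the same order. Of 12 columnar epithelial product genes with a promoter, 2 held the motif and none within those 100 bases. These are shares of a short word in promoter windows, a description of the sequences and not of binding.

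Across all genes with at least 100 UMIs in immune cells, 5410 in number, 1097 were at least 2-fold higher in immune cells than in all other labels together (20.3%) and 282 were at least 2-fold lower (5.21%). The median log2 ratio over these genes was 0.11. Because the label was drawn from the same counts, these ratios describe what sets the cells apart and cannot test it. At least 8-fold ratios were found for 416 genes and at least 100-fold ratios for 200. All 10 pan-immune genes were higher, with 6741 CPM in sum against 46.1 CPM in the other labels.

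Macrophage genes were found in most immune cells. All 13 genes of the macrophage list were at least 2-fold higher, at a summed 10200 CPM in immune cells and 34.7 CPM in the others. The genes for the 3 chains of complement C1q, which tags dying cells and debris for uptake, lie side by side on chromosome 4. They were measured at 1525 CPM for C1qa, 1634 CPM for C1qb and 1450 CPM for C1qc, and none exceeded 5.22 CPM in any other label. Csf1r, the receptor for the macrophage growth factor, reached 826 CPM against 1.82 CPM in the other labels. Cx3cr1, the fractalkine receptor, was measured at 1186 CPM and Mrc1, the mannose receptor, at 1088 CPM. All 8 resident macrophage genes with enough UMIs were higher as well, led by Pf4, a platelet and macrophage chemokine gene, at 2724 CPM. Lyve1, a hyaluronan receptor of macrophages and lymphatic vessels, stood at 419 CPM in immune cells and 241 CPM in endothelial cells, so this gene was shared between the labels.

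**Figure D1:**
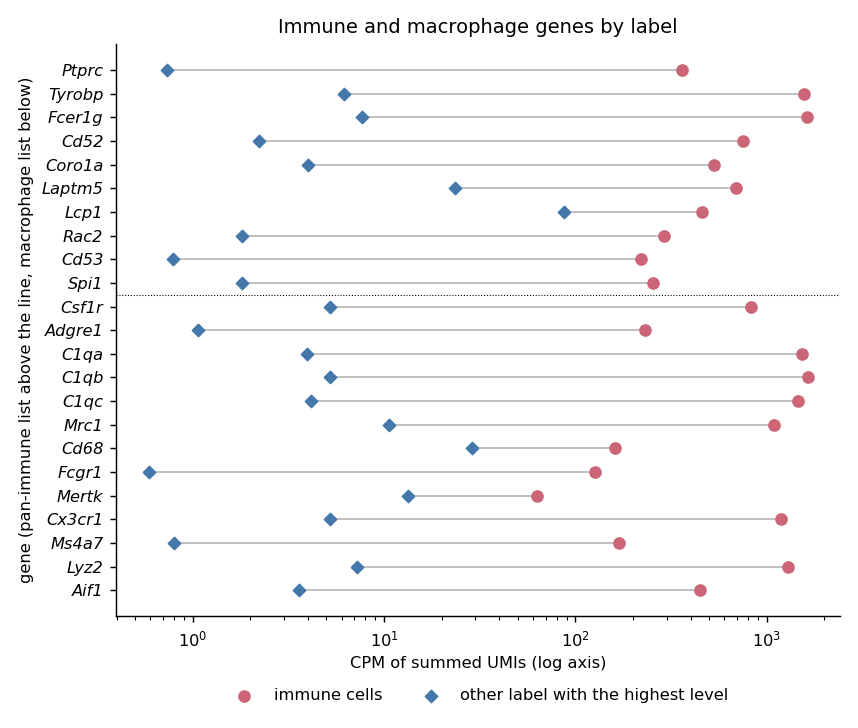
Level of the 10 pan-immune and 13 macrophage-list genes in immune cells (circles, CPM, log axis) and in the other label where each gene was highest (diamonds). For all 23 genes the immune cells lie to the right, as for C1qb at 1634 CPM against 5.22 CPM in squamous epithelium.

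Neutrophil genes were also far higher, apart from a granule gene shared with epithelium. Of 9 neutrophil genes with enough UMIs, 8 were higher in immune cells, among them S100a8 (3614 CPM) and S100a9 (5190 CPM), the subunits of calprotectin. The exception was Ltf, the gene of lactoferrin, at 157 CPM in immune cells, 106 CPM in the other labels and 17639 CPM in the second squamous label. Plac8 of the monocyte list gave 398 CPM in immune cells and 4426 CPM in the second squamous label, with a log2 ratio over all others of 0.54.

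The 30 genes with the largest ratio were mostly myeloid. They included the neutrophil genes Stfa2, Retnlg, Mmp8, Ngp and S100a8, the scavenger receptor gene Marco, the C-type lectin genes Clec4e and Clec4a2, the pore-forming protein gene Mpeg1, the oxidase subunit gene Cybb, and C1qc. Retnlg, a resistin-like secreted protein, was measured at 388 CPM against 0.279 CPM in the other labels, a log2 ratio of 10.40 (interval 9.88 to 10.97). Mpeg1 had a log2 ratio of 9.53 (9.05 to 10.06) and was found in 209 immune cells. Stfa2, Stfa2l1, Csta2, Csta3 and Cstdc4 are near-identical stefin genes, and their counts are uncertain because reads may be split among them. The remainder included genes known from lymphocytes, Ighm, Tnfrsf13b and Bank1, and the cells that carried them are described further on.

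Antigen presentation, phagocytosis and signalling genes followed the same direction. All 6 tested genes of MHC class I presentation and all 5 of MHC class II presentation were higher than in other labels. B2m, the light chain of MHC class I, stood at 1132 CPM against 136 CPM, while Cd74, the invariant chain of MHC class II, stood at 501 CPM against 1.26 CPM. Of 17 complement and phagocytic receptor genes, 16 were at least 2-fold higher, and Axl, a receptor for apoptotic cells, was not (82.1 CPM against 57.0 CPM). Of 15 lysosomal genes, 13 were higher, such as Ctss (807 CPM against 1.68 CPM), and Cd63 was lower, at 268 CPM against 554 CPM. All 13 chemokine and growth factor receptors and 16 of 17 chemokines and cytokines were higher. Cxcl2, which attracts neutrophils, was the most abundant of these ligands at 1895 CPM, and Igf1 alone was lower (129 CPM, against 1400 CPM in stromal cells).

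Most immune cells carried macrophage genes. UMIs of at least 2 genes of the macrophage list were found in 300 of 354 cells (84.7%, interval 80.6% to 88.3%) and in 4.84% of the cells with other labels. After each cell was thinned to 3000 UMIs, which left out 60 shallower immune cells, the share was 254 of 294 (86.4%), against 0.618% of other cells. Thinned shares were close across stages, at 62 of 71 cells at E15, 126 of 146 at E19 and 62 of 72 in pups, and their intervals overlapped. The summed pan-immune level was also close, at 7157, 6440 and 7364 CPM at E15, at E19 and in pups.

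Gene levels in the immune cells nonetheless differed between the fetal stages and the pups. Over all 5410 genes, 301 were at least 2-fold higher after birth (pups and adults) than before (5.56%) and 293 were at least 2-fold lower (5.42%), with a median log2 ratio of -0.07. Values are given for pools below, and 362 genes (6.69%) were higher in all 3 pup pools than in all 6 prenatal pools, while 580 (10.7%) were lower in all. Of the 8 resident macrophage genes, 5 were at least 2-fold higher after birth and none was lower, and of the 10 pan-immune genes none passed 2-fold in either direction.

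Cd163, the scavenger receptor for hemoglobin bound to haptoglobin (chromosome 6, 124304656 to 124330527), had the largest log2 ratio among the resident macrophage genes. At E15 it was measured at 13.7 CPM in the esophagus, 22.1 CPM in the GE-SCJ and 0 in the stomach, and at E19 at 115, 68.2 and 35.1 CPM in the same order. In pups it was measured at 837, 1127 and 1317 CPM, so every pup pool lay above every prenatal pool. The level over all immune cells was 10.8, 57.7 and 1035 CPM at E15, at E19 and in pups, a log2 ratio of 4.48 after over before birth (4.20 to 4.76). Of the 761 UMIs, all lay in 90 cells with at least 2 macrophage genes, and the highest cell held 40.

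Genes that handle heme and iron were among those higher after birth. Hmox1, the enzyme that breaks down heme, was measured between 141 and 267 CPM in the 6 prenatal pools and at 757, 1933 and 1833 CPM in the pup esophagus, GE-SCJ and stomach. Slc40a1, the iron exporter ferroportin, lay between 106 and 210 CPM before birth and at 405, 772 and 864 CPM in pups. With Cd163 these were the 3 of 7 iron and heme genes past 2-fold, and the groups of pools did not overlap for any of them. The ferritin chains Fth1 and Ftl1 were not past 2-fold, with log2 ratios of 0.65 and 0.37.

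Uptake receptors and complement were higher in the pup pools too. Of 17 genes, 7 were at least 2-fold higher after birth and none was lower, and 8 were higher in all pup pools than in all prenatal pools. Fcgr2b, the inhibitory receptor for immunoglobulin G, was measured at 44.2, 63.4 and 226 CPM at E15, at E19 and in pups. Fcgr3, an activating receptor of the same family, was measured at 265, 215 and 632 CPM. C1qa stood between 981 and 1657 CPM in the prenatal pools and at 2359, 3562 and 3324 CPM in the pup pools. C5ar1, a receptor for complement fragments, Msr1, a scavenger receptor, and Mertk, a receptor for apoptotic cells, had log2 ratios of 1.65, 1.30 and 1.19.

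Some macrophage genes were lower in pups. Cx3cr1 stood between 972 and 1724 CPM in the prenatal pools and at 412, 1071 and 815 CPM in the pup pools, so the pup GE-SCJ overlapped with the prenatal range. Its log2 ratio of -0.99 (-1.13 to -0.85) was just inside 2-fold. Aif1, a calcium-binding protein of the macrophage cytoskeleton, stood between 413 and 580 CPM before birth and at 105, 338 and 293 CPM in pups, with no overlap. The crystallin genes Crybb1 and Cryba4, known as transcripts of immature microglia, were measured in the prenatal pools at 72.0 to 210 CPM and 69.4 to 141 CPM. In the pup pools they lay between 10.5 and 48.8 CPM and between 0 and 11.3 CPM. Crybb1 was found in 106 cells, 104 of them with at least 2 macrophage genes, which most immune cells carried. No such count is given for Cryba4.

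**Figure D2:**
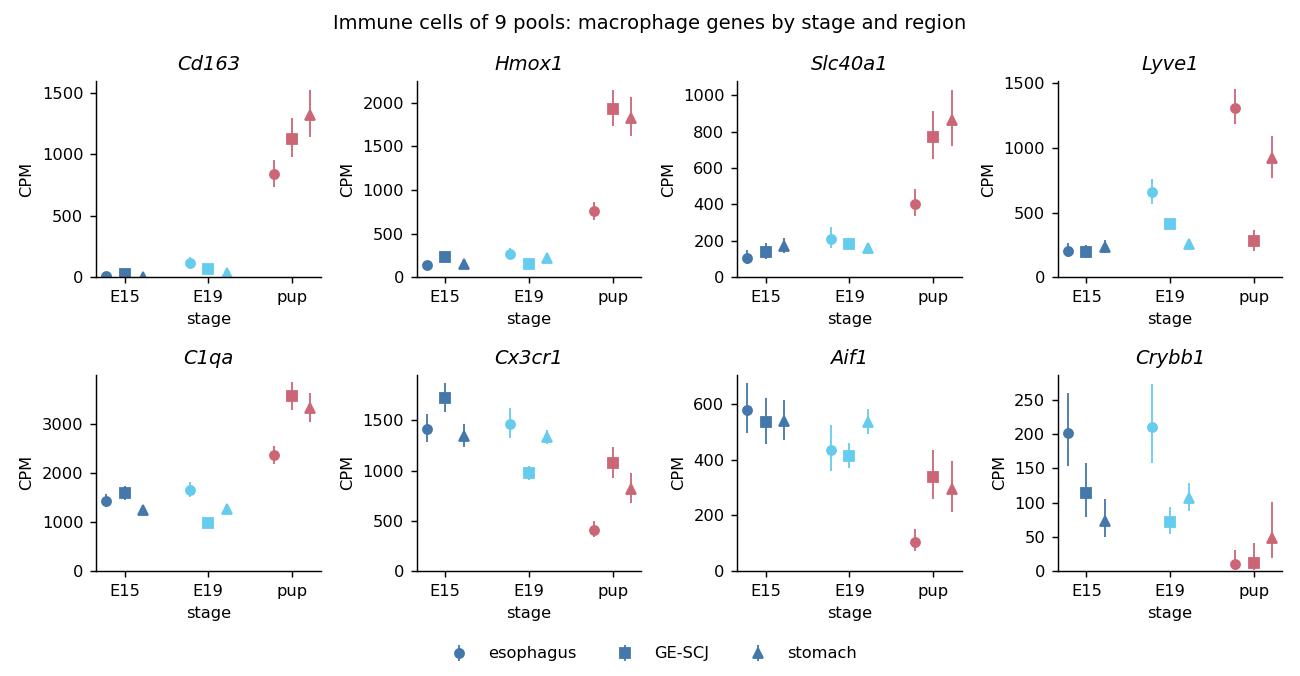
Level (CPM) of 8 genes in immune cells of the 9 pools of E15, E19 and pup tissue; points are pools (color for stage, shape for region) and bars exact 95% Poisson intervals. Cd163, Hmox1, Slc40a1 and C1qa lie higher in the 3 pup pools than in all 6 prenatal pools and Aif1 and Crybb1 lower, whereas pup and prenatal pools overlap for Lyve1 and Cx3cr1.

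Cd163 and Cx3cr1 were also measured in macrophage-list cells alone. In cells with at least 2 macrophage genes and fewer than 50 UMIs of the neutrophil list, Cd163 stood at 11.9, 63.4 and 1406 CPM at E15, at E19 and in pups (67, 154 and 66 cells). Cx3cr1 stood at 1633, 1325 and 948 CPM, against 1482, 1211 and 700 CPM over all immune cells, so its pup level lay less far below the prenatal levels in macrophage-list cells. Thinned to 3000 UMIs, 1 of 62 such cells had a Cd163 UMI at E15 (1.61%), 17 of 129 at E19 (13.2%) and 48 of 61 in pups (78.7%, interval 66.3% to 88.1%). No thinned neural or endothelial cell had a Cd163 UMI. For Cx3cr1 the counts were 58, 113 and 34 of the same cells. Cells with a Cd163 UMI but none of Cx3cr1 numbered 0 at E15, 1 at E19 and 21 in pups, and 27 pup cells carried both.

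Lyve1 and the MHC class II chain genes H2-Aa, H2-Ab1 and H2-Eb1 were counted in the same thinned macrophage-list cells. Lyve1 was found in 16 of 62 thinned cells at E15, 40 of 129 at E19 and 31 of 61 in pups, and a class II chain in 3, 16 and 4 cells. Both were found together in 1 cell, at E19, and the 3 and 4 class II cells at E15 and in pups were too few to show whether the genes shared cells. Lyve1 stood at 206, 193 and 232 CPM at E15, 657, 408 and 258 CPM at E19 and 1312, 276 and 920 CPM in pups for esophagus, GE-SCJ and stomach. All E15 pools lay below all later pools, while E19 and pup pools overlapped. The level was lower in the GE-SCJ than in the esophagus at E19 and in pups, and close at E15.

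Secreted signals differed by stage as well. Of 17 chemokine and cytokine genes, 7 were at least 2-fold higher after birth (Ccl3, Ccl6, Ccl9, Cxcl16, Il1b, Tnf and Osm) and none was lower. Of these, Ccl6, Ccl9, Il1b and Tnf were higher in all 3 pup pools than in all 6 prenatal pools, and Ccl3, Cxcl16 and Osm overlapped. Tnf, the gene of a main inflammatory cytokine, lay between 122 and 182 CPM in the prenatal pools and at 440, 485 and 634 CPM in the pup pools. Il1b, interleukin 1 beta, lay between 101 and 528 CPM before birth and at 551, 1556 and 1296 CPM in pups, a narrow gap in the esophagus. Ccl9, a chemokine for myeloid cells, was measured at 78.6, 54.3 and 614 CPM at E15, at E19 and in pups. In the same direction, 1 of 10 immediate early and heat shock genes passed 2-fold, Dusp1, at 685, 721 and 2352 CPM. The list as a whole stood at 10145, 10828 and 16721 CPM at E15, at E19 and in pups. Such genes respond to tissue dissociation, and their part in the stage difference was not tested.

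Among transcription factors, Cebpb was at least 2-fold higher after birth and Batf3 lower. Batf3 lay between 19.1 and 50.5 CPM in the prenatal pools and between 0 and 6.97 CPM in the pup pools. It was not particular to immune cells, at 24.4 CPM in stromal cells. Cebpb, a regulator of myeloid genes, was measured between 367 and 621 CPM in the prenatal pools and at 1138, 1956 and 2063 CPM in the pup pools. Spi1 differed little, from 218 to 271 CPM before birth and from 283 to 366 CPM in pups, although the ranges did not overlap.

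Among the 15 genes with the largest ratio after over before birth, several act in sensing microbes and in adhesion. Cd14, a receptor for bacterial lipopolysaccharide, lay between 24.4 and 88.6 CPM in the prenatal pools and between 564 and 927 CPM in the pup pools. Vcam1, an adhesion molecule, lay between 14.7 and 137 CPM before birth and between 255 and 1155 CPM in pups, and Cd38, an enzyme of nucleotide metabolism, between 3.43 and 45.8 CPM and between 157 and 462 CPM. For these genes, and for Fcna, Clec4d, Saa3 and Chil3, every pup pool lay above every prenatal pool. All Chil3 UMIs of pups lay in cells with at least 50 UMIs of the neutrophil list. In the pup stomach they were 10 UMIs in 1 cell. Marco did not separate the pools, since the pup stomach had 0 UMIs, and 127 of its 177 UMIs lay in 1 pup esophagus cell.

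The size of the difference between pups and prenatal stages varied by region. For the iron and heme list, the log2 ratio of pup over prenatal sums was 0.18 (0.11 to 0.25) in the esophagus, 1.24 (1.18 to 1.30) in the GE-SCJ and 1.29 (1.23 to 1.36) in the stomach. For chemokines and cytokines it was 0.26, 1.36 and 1.40. The resident macrophage list was higher in all regions, by 0.77, 1.08 and 1.56. The pup esophagus also had the largest neutrophil signal, which takes up part of its total UMIs, and the part of this in the smaller ratios was not tested.

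**Figure D3:**
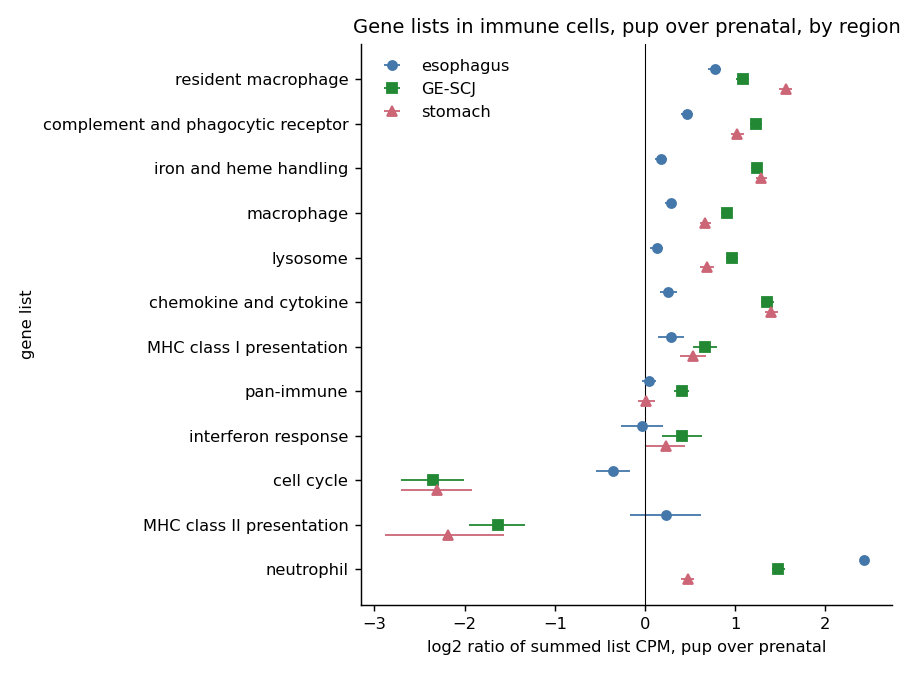
Log2 ratio of summed list CPM, pup over prenatal immune cells, for 12 gene lists in the esophagus, GE-SCJ and stomach; bars are exact 95% intervals for counting error. Iron and heme, chemokine and complement lists lie above 1 in the GE-SCJ and stomach and between 0.18 and 0.46 in the esophagus, and the cell cycle list lies below 0 in all regions.

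Neutrophil transcripts were concentrated in few cells. Of all UMIs of the neutrophil list, 99.4% lay in 35 cells with at least 50 such UMIs, and the lowest of these held 75 while the highest of the other 319 cells held 17. They numbered 6 of 82 cells at E15 (7.32%, interval 2.73% to 15.2%), 13 of 180 at E19 (7.22%, 3.90% to 12.0%) and 16 of 86 in pups (18.6%, 11.0% to 28.4%). By pool they numbered 4, 0 and 2 at E15, 2, 5 and 6 at E19 and 9, 6 and 1 in pups for esophagus, GE-SCJ and stomach. The intervals of the pup and the prenatal shares overlapped. These cells were shallower than most, with a median of 4912 UMIs, and held a median of 19 UMIs of the macrophage list against 120 in the other immune cells.

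Within these cells, the balance of granule genes varied. Camp, the cathelicidin gene, and Ngp, a secondary granule protein gene, are made in immature neutrophils, and Retnlg is known from mature ones. At least 100 UMIs of Camp and Ngp together were found in 3 of the 6 cells at E15, none of 13 at E19 and 5 of 16 in pups. In these the highest Retnlg count was 18 at E15 and 10 in pups. The limit of 100 takes no account of depth, and some cells below it carried both sets, such as an E19 stomach cell with 12 Camp, 68 Ngp and 149 Retnlg UMIs and an E19 GE-SCJ cell with 42, 45 and 67. Retnlg was found in 5, 11 and 8 cells at the 3 stages, with up to 188 UMIs in an E19 stomach cell that held 2 Camp UMIs and no Ngp. As levels over all immune cells, Camp stood at 716, 51.9 and 3136 CPM at E15, at E19 and in pups, and Retnlg at 113, 531 and 397 CPM. The Camp level was set by few cells, since those with at least 100 UMIs held 99.8% of the Camp and Ngp UMIs at E15 and most of those in pups.

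Genes of the earliest granules were rarer still. Mpo, myeloperoxidase, was found in 1 of the E19 cells, with 114 UMIs, and in 3 of the pup cells, with 67, 61 and 7. Elane, neutrophil elastase, was measured among these cells in pups only, with 48 UMIs in the highest cell. Chil3, a chitinase-like protein of myeloid cells, gave 336 UMIs in 16 cells, 15 of them from pups, and 182 of these UMIs lay in 1 pup esophagus cell.

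**Figure D4:**
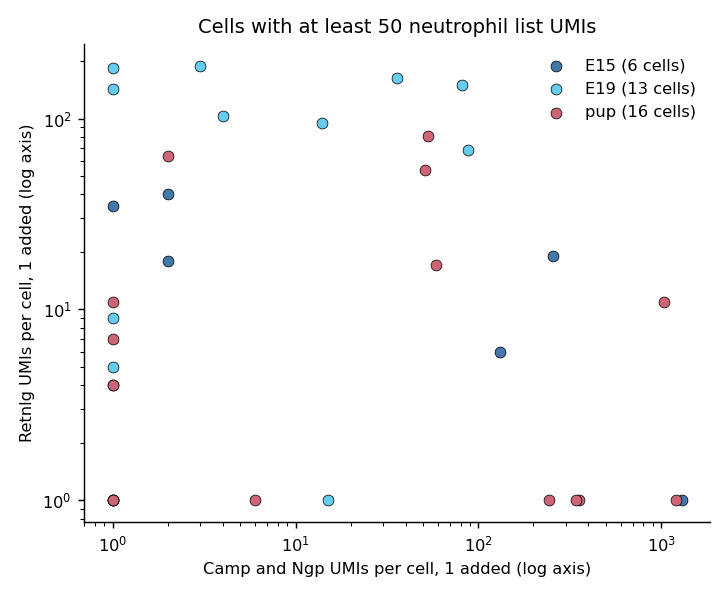
UMIs of Camp and Ngp together against UMIs of Retnlg in each of the 35 immune cells with at least 50 UMIs of the neutrophil list, by stage, on log axes with 1 UMI added. Cells with at least 100 Camp and Ngp UMIs (3 at E15, 5 in pups) have at most 18 Retnlg UMIs, and no E19 cell is among them.

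Monocyte and class II genes did not follow a common course over the stages. Ccr2, the receptor that brings monocytes into tissue, was found in 75 cells, 72 of them with at least 2 macrophage genes, and among thinned macrophage-list cells in 12 of 62 at E15, 30 of 129 at E19 and 6 of 61 in pups. Ly6c2, a monocyte surface gene, was measured at 26.5, 78.8 and 178 CPM. The summed MHC class II list stood at 485, 1147 and 326 CPM at E15, at E19 and in pups. Its highest prenatal value was in the E19 GE-SCJ (1930 CPM). Thinned to 3000 UMIs, 11 of 53 immune cells there had at least 2 genes of the list, so a minority of cells set this level. Pup over prenatal, the log2 ratio of the summed list was 0.23 (-0.17 to 0.62) in the esophagus, -1.63 in the GE-SCJ and -2.18 in the stomach. Of the MHC class I genes, H2-K1 stood at 280, 295 and 598 CPM and H2-D1 at 300, 288 and 548 CPM, both higher in all pup pools than in any prenatal pool, while the proteasome genes Psmb8 and Psmb9 were lower in all pup pools. Of the dendritic cell list, at least 2 genes were found in 39 immune cells (11.0%) and in 0.993% of other cells, with 16 of 82 cells at E15, 22 of 180 at E19 and 1 of 86 in pups. Thinned to 3000 UMIs, these were 3 of 71, 1 of 146 and 0 of 72 cells, or 4 of 294 in all (1.36%), against 0.112% of other cells. Batf3 (66 cells) and Siglech (46 cells) were its genes found in the most cells. Of these cells, 62 and 46 carried at least 2 macrophage genes, and Batf3 was also measured in stromal cells, at 24.4 CPM. Flt3 had 5 UMIs and Xcr1 none.

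The adult cells were few and differed from each other. Cd74 was measured at 177, 61, 74, 1 and 48 UMIs in the 5 adult esophagus cells and at 0 in the GE-SCJ cell. The class II list gave 25718 CPM in the adult esophagus, above the highest value of any other pool (1930 CPM). Retnla, a resistin-like gene of alternatively activated macrophages, gave 282 UMIs in all, of which 141, 106 and 34 lay in 3 adult esophagus cells. Cd163 gave 1 UMI over the 6 adult cells, which together held 57765 UMIs.

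Mast cell proteases were found in few cells. Cma1, mast cell chymase, gave 532 UMIs in 3 cells of the E19 GE-SCJ, with 276, 243 and 13 UMIs. Tpsb2, a tryptase, gave 207 UMIs in 3 E19 cells, and Cpa3, mast cell carboxypeptidase, 302 UMIs in 5 E19 cells and 1 E15 cell. Outside the immune label, 1 squamous epithelial cell for each gene held 173 UMIs of Cma1, 127 of Tpsb2 and 97 of Cpa3, and no other cell held more than 1. No UMI of these 3 genes was found in the 86 pup cells. A limit of 3 cells for a count of 0 allows a share of up to 3.49% with a UMI, and the exact interval for 0 of 86 cells reaches 4.20%. In the log2 ratio of after over before birth, Cpa3 stood at -6.02 (-11.33 to -3.53), a value that rested on 6 cells.

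Lymphoid genes were confined to few cells for defining markers, with the exception of several B-lineage transcripts. Trbc1 and Trbc2, constant parts of the T-cell receptor, were found in 2 and 7 cells, Il7r, the interleukin 7 receptor of lymphoid cells, in 5 cells of the E19 GE-SCJ, and Cd79a, a B-cell receptor chain, in 5 cells. Igkc, the kappa light chain, gave 41 UMIs in 1 E15 esophagus cell. Ighm, the heavy chain of immunoglobulin M, was in contrast found in 114 cells, of which 107 carried at least 2 macrophage genes. Outside the B-lineage cell described above, the highest Ighm count was 18. Bank1, a B-cell adaptor, was found in 126 cells, 118 of them with 2 macrophage genes, and Tnfrsf13b, a receptor for B-cell survival factors, in 136, of which 128 carried them. Siglech, listed as a gene of plasmacytoid dendritic cells and known from microglia, was found in 46 cells, all with at least 2 macrophage genes, 21 at E15 and 25 at E19. Ighm was lower after birth, at 143, 130 and 39.5 CPM at E15, E19 and in pups, although the pup esophagus (80.3 CPM) overlapped with the prenatal range of 70.1 to 220 CPM. The B-lineage cell, from the E19 GE-SCJ, alone held 122 Ighm UMIs, so the E19 level rests in large part on that cell.

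Proliferation genes in immune cells were at a level similar to that in other cells. The 10 cell cycle genes stood at 1698 CPM in immune cells and 1377 CPM in the others, a log2 ratio of 0.30 (0.27 to 0.34), and 1 of them, the replication gene Mcm5, passed 2-fold. After birth 7 of the 10 were at least 2-fold lower. Top2a, which untangles replicated DNA, was measured at 312, 333 and 117 CPM, and Birc5, which acts in chromosome separation, at 157, 142 and 31.3 CPM at E15, E19 and in pups. Thinned to 3000 UMIs, at least 2 cell cycle genes were found in 36 of 71 cells at E15 (50.7%), 78 of 146 at E19 (53.4%) and 17 of 72 in pups (23.6%, interval 14.4% to 35.1%). The share in cells of all other labels was 35.2%. By region, the log2 ratio of pup over prenatal was -0.35 (-0.54 to -0.17) in the esophagus, -2.35 in the GE-SCJ and -2.30 in the stomach.

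Between regions, few genes differed at all stages. Stomach over esophagus, 77 genes were at least 2-fold higher (1.42%) and 118 at least 2-fold lower (2.18%). At E15, at E19 and in pups alike, 8 genes were so higher and 11 lower. Some of these calls rested on few UMIs in pups, such as 2 in the esophagus and 5 in the stomach for Ube3c, 0 and 2 for Tmem273, and 3 and 0 for both Ptn and Fbln1. Mmp13, a collagenase, gave 0, 75 and 127 UMIs in the esophagus, GE-SCJ and stomach, all in 21 cells with at least 2 macrophage genes. The stomach level was 80.4 CPM, and a pup stomach cell held 54 of the UMIs. Tspan13, a tetraspanin, stood at 60.7, 185 and 249 CPM, and Cxcl16, a membrane-bound chemokine, at 52.4, 95.6 and 120 CPM, in the same order of regions. Among the 11 lower in the stomach were Ptn, Mdk, Ebf1, Fbln1 and Meg3, which are known from mesenchymal cells. Summed over cells, the fibroblast product list was also lower in the stomach before birth. For esophagus, GE-SCJ and stomach it stood at 2356, 900 and 354 CPM at E15 and 5575, 1567 and 769 CPM at E19. Few cells set these sums: the median immune cell held 2, 4 and 3 such UMIs at E15 and 2.5, 4 and 4 at E19. The means were 26.4, 11.4 and 4.68 UMIs at E15 and 38.4, 18.8 and 10.4 at E19. In pups the fibroblast list ran the other way, at 426, 451 and 1073 CPM. Meg3 (-3.06) and Ebf1 (-3.17) were still lower in the pup stomach on the log2 scale. Ebf1 had 17 UMIs in the pup esophagus and 0 in the pup stomach, so the size of its ratio rests on the added UMI.

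Transcripts of columnar epithelial products were present in all immune cells, at medians close to those in labels that are not epithelial. Pgc, the gastric enzyme precursor pepsinogen C, was found in all 354 immune cells, in all 157 endothelial cells and in 418 of 419 neural cells. Its median was 8 UMIs in an immune cell and 7 in neural, endothelial and smooth muscle cells together. Thinned to 3000 UMIs, 89.5% of immune, 92.9% of neural and 89.2% of endothelial cells had a Pgc UMI, and whether free RNA of the common library was the source was not tested. The 17 columnar epithelial product genes gave a median of 20 UMIs in an immune cell and 19 in those 3 labels. The medians lay between 17.5 and 23 UMIs over the 9 pools of E15, E19 and pup immune cells, and between 17 and 20 in the 3 labels. In immune cells they were 17.5, 18 and 18 UMIs in the 3 esophagus pools and 23, 21 and 22 in the 3 stomach pools.

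The mean showed more than the median, since few cells held many such UMIs. It was 31.7 columnar product UMIs in an immune cell and 23.9 in the 3 labels, and 26.5 and 22.4 when the 2 highest cells were left out on each side. The 2 immune cells with the most Pgc UMIs held 1282 and 313 of them. In all, 13 immune cells (3.67%) held more columnar product UMIs than all but the highest 1% of cells in the 3 labels, and 11 (3.11%) did so for squamous epithelial products. The squamous list had a median of 2 UMIs both in an immune cell and in the 3 labels, with means of 4.28 and 2.67, and was found in 83.6% and 84.6% of cells. Tff1, a mucus peptide of the stomach surface, averaged 4.53 UMIs in an immune cell and 4.38 in the 3 labels. Within the list, Pgc made up 43.8% of UMIs in immune cells, 35.7% without those 2 cells, 38.7% in the 3 labels and 42.1% in columnar epithelium. By contrast the macrophage list averaged 108 UMIs in an immune cell and 0.329 in the 3 labels. All 15 columnar product genes with enough UMIs were lower in immune cells than in the other labels together, with 2982 CPM in sum against 17191 CPM.

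**Figure D5:**
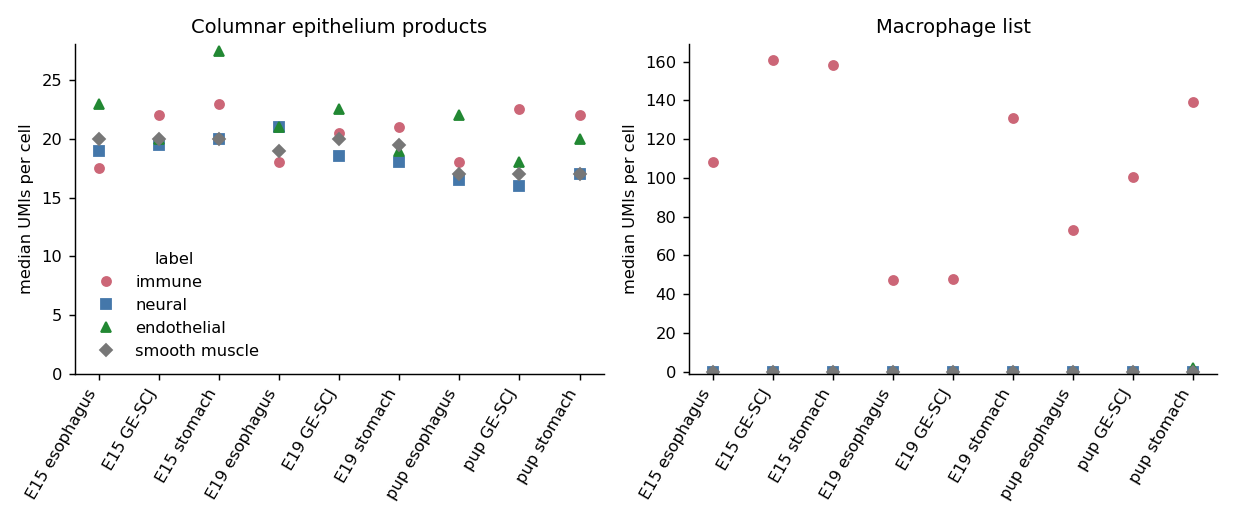
Median UMIs per cell of the columnar epithelial product list and of the macrophage list in immune, neural, endothelial and smooth muscle cells, in each of 9 pools. Columnar products lie between 17.5 and 23 UMIs in immune cells and between 16 and 27.5 in the other labels, while macrophage genes lie between 47.5 and 161 UMIs in immune cells and between 0 and 2 in the others.

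Hemoglobin followed another pattern. The erythroid list had a median of 3 UMIs in an immune cell, as in most other labels, but 9 immune cells held at least 50 and together 96.3% of its 34570 UMIs in immune cells. Of these, 5 were from E15, 3 from E19 and 1 from pups, and the highest held 10112. They carried a median of 212 UMIs of the macrophage list, at a median depth of 19972 UMIs. Such cells were also found under other labels, at 8 of 157 endothelial cells and 7 of 1027 smooth muscle cells. The hemoglobin genes Hbb-bs, Hbb-bt, Hba-a1 and Hba-a2 were thus the most abundant of the genes lower after birth, with Hbb-bs at 8954, 4167 and 252 CPM at E15, at E19 and in pups. Their levels overlapped between pools, since the E15 esophagus and the E19 stomach held no such cell, and the pairs of near-identical genes may share reads.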

How the data were processed

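Cells were dissociated with collagenase II and TrypLE, tagged by pool and sequenced in a common library. Raw UMI counts per gene and cell were deposited by the authors, made with Cell Ranger 6.1.1 (multi) on mm10 (GRCm38), after removal of cells with few or very many genes, many UMIs, a high mitochondrial share or poor reads. The mitochondrial percent of each cell was deposited by the authors in the same table as the labels, and the labels came from their clustering after sctransform. Gene positions were from GENCODE and promoters from RefSeq.

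Counts were summed over cells and no doublet caller was run. Genes with at least 100 UMIs in immune cells were compared, and a gene was called past 2-fold. Each region and stage was 1 pooled sample, so there was no test. Intervals at 95% (exact Poisson for levels, Clopper-Pearson for shares, exact conditional for ratios) cover counting error only. The members and the gene lists were chosen with earlier results of these data known. Genes named were the 30 with the largest ratio over other labels, the 15 with the largest ratio in each direction after over before birth, the 10 most abundant candidates for free RNA, and the listed genes, some of which are not reported here. Of 295 listed genes, 270 were in the table. The log2 ratio and its interval were tested on simulated counts. Tables were handled with pandas 2.3.3 and numpy 2.4.6, intervals with scipy 1.17.1, clusters with scanpy 1.11.5 and igraph 0.11.9, and plots with matplotlib 3.10.9, in Python 3.11.15.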

Additional observations from a re-analysis of the deposited data

Results flagged for a closer look

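The smooth muscle product list moved in opposite directions between birth stages in different regions. Its log2 ratio of pup over prenatal immune cells stood at -1.09 for esophagus pools but at 1.81 for stomach pools, and the difference was not tested. Few UMIs were behind both values: 1 pup stomach cell held 54 of the 93 UMIs of its pool, and 1 E15 esophagus cell 54 of 96. That pup stomach cell was the one with tuft cell genes described above, which went against the label.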

How the results depend on the processing

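No paired analysis was possible because the labels give no replicate numbers and do not say whether the regions of a stage share mice; values within each region and each stage are given instead. With 1 sample a group, no replicate could be left out. With genes of at least 20 UMIs in place of 100, 1651 genes were higher and 1339 lower than in other labels, and 815 higher and 860 lower after birth. With cells chosen by at least 5 pan-immune UMIs in place of the label, 526 cells entered, of which 337 carried the label. In that set 554 genes were lower than in other cells, and 722 were higher and 1615 lower after birth. With free RNA subtracted, 2875 were higher and 628 lower after birth, but 2346 genes were then under 1 UMI in prenatal and 1113 in postnatal cells. Pup against prenatal cells of the esophagus alone gave 458 lower, of the GE-SCJ alone 557 higher and 683 lower, and of the stomach alone 630 higher and 630 lower. Hbb-bt (0.017) changed sign in the esophagus alone, Rora (1.06) in the stomach alone, and H2-Aa (0.51) without the 1% of cells with its most UMIs. Cpa3 had 0 UMIs in the esophagus, so its value there (0.95) holds only the added UMI and the depths. Stomach over esophagus, the mean of single-cell CPM gave 153 higher, E15 alone 252 higher and 320 lower, E19 alone 232 and 244, and pups alone 539 and 640. By the mean of single-cell CPM, the cell cycle list over other labels was -0.063. The log2 ratio of columnar product UMIs per cell over the 3 labels, 0.41, was 0.56 by that mean, 0.56 over neural cells, 0.35 over smooth muscle cells and 0.15 without the 2 cells with the most Pgc. Macrophage-list cells were 79.9% with at least 3 genes and 94.4% with at least 1, and cells with neutrophil-list genes, 17.8% with at least 2, were 11.0% and 44.1%, and 11.2% when thinned. Beyond these values, the cause was not tested. Of 420 values of the 30 genes named by stage, 416 kept their direction and 390 were past 2-fold, and all 240 values of the 30 genes named by identity kept both. The settings for single regions or stages, without adult cells and without neutrophil-rich or hemoglobin-rich cells were added after the data were seen. The 6 adult cells and the 17 pup stomach cells limit what depth can show.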
